A study of Mus musculus with 2 samples.

Results

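The genes described are those of synaptic vesicles, of the SNARE fusion machinery and of the Rab family of small GTPases in the embryonic mouse cortex. They were chosen by a rule on gene names, as every probe set with a single gene symbol of the Syt, Stx, Vamp, Snap, Rab, Syn, Syp, Syngr, Cplx, Sv2, Rims, Napa, Napb or Nsf families. This gave 107 of 12488 probe sets and 84 of 8251 genes, of which 25 were presynaptic by role and 59 served general membrane traffic. The tissue was cerebral cortex of NMRI mouse embryos at stage E14.5, either Pax6-/- or wild type (WT), with 1 Affymetrix array for each genotype. The labels do not name the Pax6 allele. The design text counts 3 embryos of each genotype, and whether their RNA was pooled is not stated in the labels. The question asked of these arrays was which genes depend on Pax6, a transcription factor of cortical progenitors. With 1 array for each genotype there is no replicate check, no difference was tested, and all that follows is a description of these 2 arrays.

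Synaptic vesicles fuse when a vesicle SNARE (a VAMP, or synaptobrevin) zips together with plasma membrane SNAREs (a syntaxin and a SNAP), and synaptotagmins couple this step to calcium. Complexins hold and assist the assembled SNAREs, while the ATPase NSF and its SNAP adaptors take spent complexes apart. The same principle, with other SNAREs and with Rab GTPases as identity tags of each membrane, moves cargo through the secretory and endocytic routes of every cell. At mid-gestation most cortical neurons are young and still migrating, and synapses are sparse.

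Values are MAS5 signal intensities, the Affymetrix summary of a probe set, on a linear scale. A log2 ratio is Pax6-/- over WT after adding a pseudocount of 81.5 to each signal and centring, so it understates the difference of dim genes. A gene is represented by its brightest probe set, and 2-fold, a log2 ratio of 1 or −1, is a threshold of size. Of the 8251 genes, 564 (6.84%) passed 2-fold on the higher side in Pax6-/- and 472 (5.72%) on the lower side. With quantile scaling the counts were 431 higher and 598 lower, and with loess scaling 422 higher and 599 lower, so the balance of directions over all genes turned with the scaling. The technical spread, taken from how far probe sets of a shared gene disagree, was 0.71 log2 units at mean signals below 527, 0.50 up to 949 and 0.44 above that. It was taken from probe sets above the signal filter and was not measured for dimmer ones. The filter is set on the mean of both log2 signals after the pseudocount, and matches a signal of about 166 on both arrays. A gene high on only 1 array can thus lie below it although its plain mean signal is above 166.

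Median signals were 283.7 on the Pax6-/- array and 237.3 on the WT array. Pax6 itself had a signal of 447 in Pax6-/- and 1169 in WT, a log2 ratio of −1.29, although a probe set outside the mutated stretch of the gene would be no check of the labels, and its position there was not examined. Markers of young neurons and of progenitors, which do not set cortex apart from other brain regions, were present. Tubb3 and Dcx of young neurons had signals of 14078 and 4127 in Pax6-/- against 16221 and 5742 in WT. The progenitor gene Fabp7 had 3590 in Pax6-/- against 4753 in WT. Of 16 neuron markers 13 were lower, none past 2-fold, with a median log2 ratio of −0.33 and summed signals of 39134 in Pax6-/- and 48009 in WT. The 7 measured GABAergic and subpallial markers summed to 12326 in Pax6-/- and 1571 in WT, and 6 of them were higher. Dlx1, Dlx2 and Dlx5, transcription factors of GABAergic lineages, were past 2-fold (log2 ratios 4.59, 3.99 and 1.96), and most of the Pax6-/- sum came from Dlx1 (5982 in Pax6-/-, 162 in WT) and Dlx2 (4180 in Pax6-/-, 179 in WT). Gad2 was at 0.10, and Lhx6, of interneurons, was on the lower side at −0.68. Other markers past 2-fold were the progenitor gene Sox2 (1.06), the microglial genes Csf1r (1.54) and C1qb (1.14), the endothelial gene Cldn5 (1.06) and the meningeal list's Igf2 (−1.04) and, below the signal filter, Lum (−1.08). Over the whole lists, 4 of 9 progenitor markers, 8 of 8 microglial, 4 of 7 vascular, 5 of 8 meningeal and 4 of 7 erythroid markers were higher. Progenitor markers summed to 18927 in Pax6-/- and 15773 in WT, so the sum lay on the other side from Fabp7. Summed signals of microglial markers were 3947 in Pax6-/- and 1848 in WT, those of vascular markers 1973 in Pax6-/- and 1690 in WT, those of meningeal markers 3634 in Pax6-/- and 3589 in WT, and those of erythroid markers 13461 in Pax6-/- and 15642 in WT. None of these markers was listed at 0. The part of these cell types in the results below was not tested, and fewer cells of a type cannot be told apart from less RNA per cell.

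Promoters of 5 presynaptic genes past 2-fold are shown first, 3 from the lower side (Stx1a, Rab3a, Syp) and 2 from the higher side (Syt9, Vamp1), so that both directions can be set side by side; they were picked after their values were seen. Each runs from 250 bases before to 50 after a start site in RefSeq, build GRCm38.p6, 5′ to 3′ on the gene's strand. Capitals mark the GC box GGGCGG, the core letters of the Sp1 site, or its reverse complement CCGCCC.
Stx1a, chr5:135023232-135023531, + strand: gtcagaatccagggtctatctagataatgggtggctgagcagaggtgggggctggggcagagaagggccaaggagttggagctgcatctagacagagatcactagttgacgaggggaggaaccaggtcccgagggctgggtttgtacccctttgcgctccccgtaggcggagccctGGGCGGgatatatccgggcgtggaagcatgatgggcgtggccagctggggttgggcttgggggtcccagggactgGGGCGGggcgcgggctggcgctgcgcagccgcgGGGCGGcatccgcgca
Rab3a, chr8:70754453-70754752, + strand, the first of 2 start sites listed: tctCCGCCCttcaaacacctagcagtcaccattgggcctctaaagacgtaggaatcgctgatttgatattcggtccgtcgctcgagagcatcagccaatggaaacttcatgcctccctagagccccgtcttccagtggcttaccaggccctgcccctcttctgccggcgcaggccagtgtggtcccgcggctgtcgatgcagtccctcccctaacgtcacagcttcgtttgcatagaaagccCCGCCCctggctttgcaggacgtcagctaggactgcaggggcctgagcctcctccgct
Syp, chrX:7638330-7638629, + strand: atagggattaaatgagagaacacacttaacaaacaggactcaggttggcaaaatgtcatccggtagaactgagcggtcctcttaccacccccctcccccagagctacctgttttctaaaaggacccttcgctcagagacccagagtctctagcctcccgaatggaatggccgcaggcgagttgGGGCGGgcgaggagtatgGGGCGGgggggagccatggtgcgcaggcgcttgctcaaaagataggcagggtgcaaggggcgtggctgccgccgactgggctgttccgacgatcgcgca
Syt9, chr7:107370540-107370839, + strand: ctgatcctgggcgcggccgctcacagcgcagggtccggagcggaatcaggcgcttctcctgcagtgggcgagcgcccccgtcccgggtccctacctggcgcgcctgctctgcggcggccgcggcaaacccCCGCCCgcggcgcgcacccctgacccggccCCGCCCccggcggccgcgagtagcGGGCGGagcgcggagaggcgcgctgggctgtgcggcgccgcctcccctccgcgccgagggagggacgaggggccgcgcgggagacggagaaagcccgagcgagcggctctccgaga
Vamp1, chr6:125215331-125215630, + strand: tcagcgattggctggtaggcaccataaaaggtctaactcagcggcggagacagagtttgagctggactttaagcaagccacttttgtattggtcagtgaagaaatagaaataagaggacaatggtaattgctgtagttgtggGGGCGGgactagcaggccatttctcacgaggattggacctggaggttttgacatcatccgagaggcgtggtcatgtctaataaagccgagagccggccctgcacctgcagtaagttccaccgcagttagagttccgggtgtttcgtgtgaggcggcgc
The Stx1a window held 3 GC boxes, Rab3a 2 and Syp 2, and on the higher side Syt9 held 3 and Vamp1 held 1. The letters occurred in 57.1% of the 8408 windows of genes on the array, and in 35.7% of all 32851 windows in the same table, noncoding genes included. GC content was lowest for Vamp1 (51.7%) and highest for Syt9 (79.3%), both on the higher side, with the 3 lower genes between them. Only 19 of the 25 presynaptic genes had an entry, and 6572 of the 8251 genes on the array. The letters occurred in 66.7% of the 27 presynaptic windows and in 68.8% of the 64 general traffic windows. These shares were not tested against the 57.1%.

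Presynaptic genes lay on both sides of level. Of the 25, 15 were higher and 10 lower in Pax6-/-, with 3 at least 2-fold higher (Vamp1, Syt9, Syt7) and 3 at least 2-fold lower (Stx1a, Rab3a, Syp). That is 12.0% in each direction, against the 6.84% and 5.72% of all genes. The median log2 ratio was 0.29, against 0.02 over all genes, and the middle of the list ran from −0.38 to 0.43 (quartiles). Only 12 of the 25 lay above the signal filter, of which 1 was past 2-fold higher (Syt7) and 2 lower (Stx1a, Rab3a). Vamp1, Syt9 and Syp lay below it, where the technical spread was not measured. All synaptotagmins counted as presynaptic here; with only Syt1, Syt2 and Syt9 kept, the list median was 0.33.

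**Figure D1:**
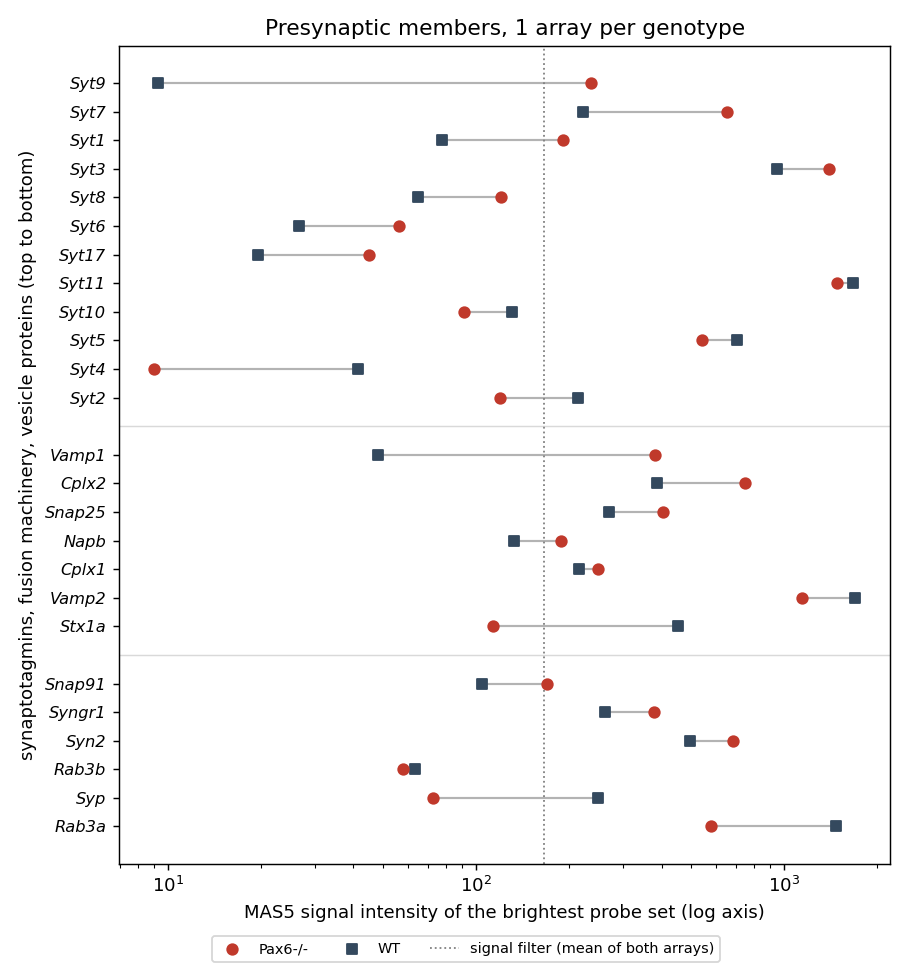
MAS5 signal of the brightest probe set of each of the 25 presynaptic genes (log axis), circles for Pax6-/- and squares for WT, 1 array each, with no error bars because there is no replicate. The genes past 2-fold after the pseudocount are Vamp1, Syt9 and Syt7, to the right in Pax6-/-, and Stx1a, Syp and Rab3a, to the left. Signals are drawn without the pseudocount, so gaps of dim genes such as Syt4 and Syt1 also look wide. The dotted line is the signal filter, which applies to the mean of both log2 signals after the pseudocount.

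Among the core fusion proteins, the plasma membrane syntaxin and the vesicle SNARE of the forebrain were both lower. Stx1a, the neuronal syntaxin, had a signal of 114 in Pax6-/- and 452 in WT, 2.82-fold lower (log2 ratio −1.50, and −0.97 with a larger pseudocount at the 50th percentile of all signals). Vamp2, the principal synaptobrevin of forebrain vesicles, had 1145 in Pax6-/- and 1704 in WT, a log2 ratio of −0.59. Its second probe set, far dimmer and below the signal filter, gave 69.9 in Pax6-/- and 147 in WT, a log2 ratio of −0.64. Both Vamp2 readings lay on the lower side, short of 2-fold after the pseudocount. The pseudocount shrinks the ratio of the dimmer probe set more, so the 2 sizes cannot be compared.

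Snap25, the remaining partner of that complex, did not share the direction. This neuronal plasma membrane SNAP had 406 in Pax6-/- and 270 in WT, a log2 ratio of 0.43, smaller than the technical spread of 0.71 at that signal. Vamp1, the synaptobrevin best known from spinal cord and brainstem, had 382 in Pax6-/- and 48.2 in WT, 3.46-fold higher (log2 ratio 1.79). That ratio was 1.03 with the 50th-percentile pseudocount and 2.94 without one. Its other probe set was dim on both arrays, at 55.7 in Pax6-/- and 26.7 in WT with a log2 ratio of 0.30, and both Vamp1 probe sets carry a suffix for probes that relax the usual design rules.

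Cplx2, one of the brain complexins, had 747 in Pax6-/- and 386 in WT, a log2 ratio of 0.78 that exceeded the technical spread of 0.50 but not 2-fold. Cplx1 was nearly level, at 248 in Pax6-/- and 216 in WT (log2 ratio 0.10). The probe sets of Napb, the brain adaptor of NSF, contradicted each other: the brighter gave 189 in Pax6-/- and 133 in WT (log2 ratio 0.29), the other 59.9 in Pax6-/- and 256 in WT (log2 ratio −1.30).

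Vesicle proteins split in the same manner, with 2 of 6 (33.3%) at least 2-fold lower, against 5.72% of all genes. Rab3a, the GTPase that decorates synaptic vesicles, had 579 in Pax6-/- and 1476 in WT, 2.43-fold lower (log2 ratio −1.28), beyond its technical spread of 0.44. A second, dim Rab3a probe set gave 97.3 in Pax6-/- and 32.2 in WT, the opposite sign (log2 ratio 0.61), and the mean of both was −0.34. Syp (synaptophysin), the abundant membrane protein of the vesicle, had 72.6 in Pax6-/- and 249 in WT, 2.21-fold lower (log2 ratio −1.15, and −0.65 with the 50th-percentile pseudocount). The Pax6-/- signals of Syp and Stx1a were in the dim range, where the pseudocount sets much of the ratio.

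The other vesicle proteins lay close to level or above it. Syn2, a synapsin that tethers vesicles to the cytoskeleton, had 683 in Pax6-/- and 494 in WT (log2 ratio 0.36). Syngr1, a synaptophysin relative, had 377 in Pax6-/- and 262 in WT (log2 ratio 0.37), and Snap91 (AP180), a clathrin adaptor of vesicle retrieval, 170 in Pax6-/- and 104 in WT (log2 ratio 0.39). Those of Syn2 and Syngr1 were smaller than the technical spread at their signal, and Snap91 lay below the filter. Rab3b was dim on both arrays, at 58.1 in Pax6-/- and 63.6 in WT (log2 ratio −0.10).

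Synaptotagmins were the largest presynaptic group, with 12 genes, 7 higher and 5 lower. Of the 12, 2 (16.7%) passed 2-fold on the higher side and 0 on the lower, against 6.84% and 5.72% of all genes. Only Syt3, Syt5, Syt7 and Syt11 lay above the signal filter. Syt7, a high-affinity calcium sensor of asynchronous release, had 652 in Pax6-/- and 223 in WT, 2.33-fold higher (log2 ratio 1.22, and 0.88 with the 50th-percentile pseudocount). Syt9, a calcium sensor of vesicle release, had 235 in Pax6-/- and 9.28 in WT. Its fold of 3.38 rests on the pseudocount, because the WT signal was far below it: the log2 ratio of 1.76 became 4.62 without a pseudocount and 0.85 with the 50th-percentile one.

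Among the other synaptotagmins above the filter, Syt3 had 1395 in Pax6-/- and 949 in WT, a log2 ratio of 0.47 with 0.57 at its second probe set. Syt11, which lacks calcium binding, had 1481 in Pax6-/- and 1672 in WT (log2 ratio −0.21), and Syt5 543 in Pax6-/- and 704 in WT (log2 ratio −0.38). Neither differed by more than the technical spread.

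The probe sets of Syt1 and Syt2, the fast calcium sensors of synchronous release, lay below the signal filter. Syt1 had 192 in Pax6-/- and 77.7 in WT (log2 ratio 0.73), and Syt2 had 119 in Pax6-/- and 215 in WT (log2 ratio −0.61), with 59.2 in Pax6-/- and 248 in WT at its second probe set (log2 ratio −1.27). The remaining 5, all below the filter, were Syt4 (log2 ratio −0.49), Syt10 (−0.34), Syt17 (0.28), Syt6 (0.31) and Syt8 (0.42), from signals between 9.01 and 131. Without a pseudocount Syt4 was at −2.25, Syt17 at 1.15 and Syt6 at 1.03, so these values depend on it.

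General traffic genes leaned to the lower side. Of 59, 36 were lower and 23 higher in Pax6-/-, where 6 (10.2%) passed 2-fold on the lower side and 0 on the higher, against the 5.72% and 6.84% of all genes. Of all 8251 genes, 3967 were lower and 4283 higher. The general traffic median log2 ratio was −0.18, against 0.02 over all genes. It stayed between −0.23 and −0.12 under all alternatives that gave it, quantile and loess scaling included, while the presynaptic median ran from 0.08 to 0.46. The medians of the presynaptic and general traffic lists lay 0.47 apart, and from 0.23 to 0.69 apart over the alternatives; with 1 array for each genotype this difference has no test.

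**Figure D2:**
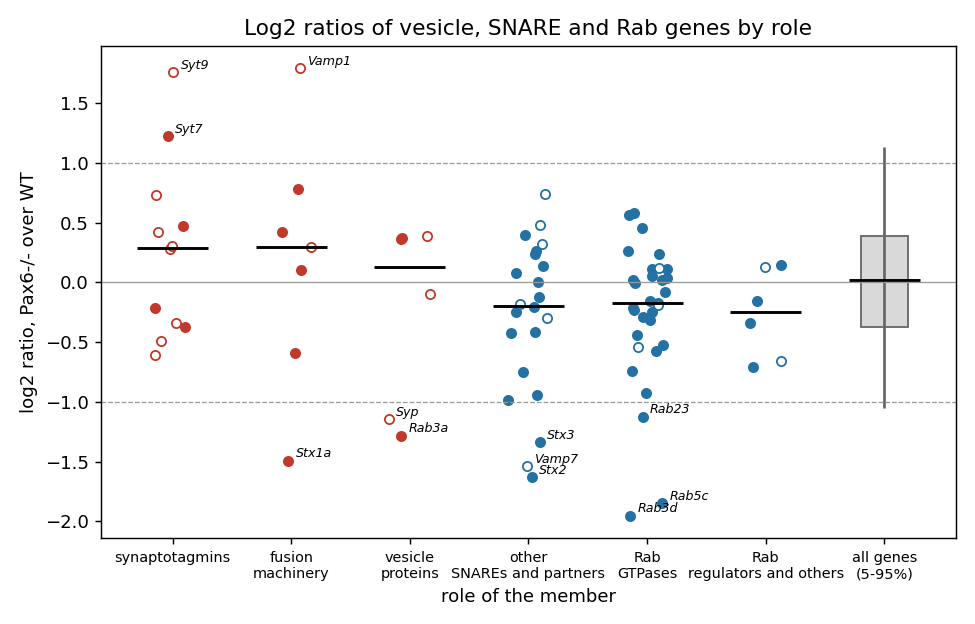
Log2 ratio, Pax6-/- over WT, of each of the 84 genes by role, presynaptic groups in red and general traffic groups in blue. Filled points lie above the signal filter and open points below it, black bars are medians, dashed lines mark 2-fold, and the box shows the quartiles of all 8251 genes with a line from the 5th to the 95th percentile. The 3 presynaptic medians lie above 0 and the 3 general traffic medians below it.

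Signal level moved with these values. In the brightest tertile of all genes the general traffic median was −0.10 (26 genes), beside −0.12 over all 2751 genes of that tertile, almost the same value. In the middle tertile it was −0.23 (21 genes), beside 0.11 over all genes, and in the dimmest tertile −0.18 (12 genes), beside 0.12. The presynaptic medians were 0.29 (13 genes), 0.40 (6 genes) and −0.29 (6 genes) in the dimmest, middle and brightest tertiles. The median of the bright presynaptic genes, Vamp2 and Rab3a among them, was thus below 0, and the medians of the dimmer ones above it. Shares of all genes past 2-fold in either direction were 16.6%, 17.5% and 3.56% in the dimmest, middle and brightest tertiles. Beside these stood 2 of 12, 4 of 21 and 0 of 26 general traffic genes, and 3 of 13, 2 of 6 and 1 of 6 presynaptic genes. Whether these counts differed from those of other genes of like signal was not tested.

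The Rab GTPases numbered 31 genes, with 19 lower and 12 higher. Of the 31, 3 (9.68%) were past 2-fold lower and 0 higher, against 5.72% and 6.84% of all genes. Rab3d, a relative of Rab3a on secretory granules, had 76.1 in Pax6-/- and 511 in WT, 3.88-fold lower (log2 ratio −1.96, with −1.24 and −2.80 as the extremes over the alternatives). Rab5c, of early endosomes, had 176 in Pax6-/- and 820 in WT, 3.61-fold lower (log2 ratio −1.85). Both kept a ratio past 2-fold in every alternative that measured them. Rab23, a brake on Sonic hedgehog signalling in the mouse embryo, had 95.3 in Pax6-/- and 293 in WT, 2.18-fold lower (log2 ratio −1.13, and −0.68 with the 50th-percentile pseudocount).

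Members of the Rab5 and Rab4 subfamilies differed among themselves. Rab5a, also of early endosomes, had 700 in Pax6-/- and 1044 in WT (log2 ratio −0.57), and Rab5b had 332 in Pax6-/- and 314 in WT (log2 ratio 0.02), so the Rab5 members ranged from past 2-fold lower to level. Rab4a, of the fast recycling route, had 414 in Pax6-/- and 834 in WT, just short of 2-fold (log2 ratio −0.93), while Rab4b was level at 639 in Pax6-/- and 606 in WT (log2 ratio 0.02). The recycling endosome genes Rab11a (1023 in Pax6-/-, 992 in WT) and Rab11b (2211 in Pax6-/-, 2271 in WT) and the Golgi gene Rab6a (1632 in Pax6-/-, 1329 in WT) were bright and within 0.24 of 0 on the log2 scale.

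By brightest probe set, no Rab passed 2-fold on the higher side. Rab31 had 744 in Pax6-/- and 455 in WT, a log2 ratio of 0.58, and its second probe set gave 381 in Pax6-/- and 226 in WT with a log2 ratio of 0.55, so both probe sets gave nearly the same difference. Rab8b, a GTPase of exocytic carriers, had 430 in Pax6-/- and 254 in WT (log2 ratio 0.56), Rab12 had 767 in Pax6-/- and 517 in WT (log2 ratio 0.46) and Rab21, of endosomes, 423 in Pax6-/- and 325 in WT (log2 ratio 0.26). Of these, only Rab31 exceeded its technical spread. The Rab genes described nowhere else, Rab8a, Rab9, Rab17, Rab18, Rab20, Rab24, Rab25, Rab28, Rab33a, Rab34 and Rab35, lay between −0.54 (Rab17) and 0.12 (Rab20).

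**Figure D3:**
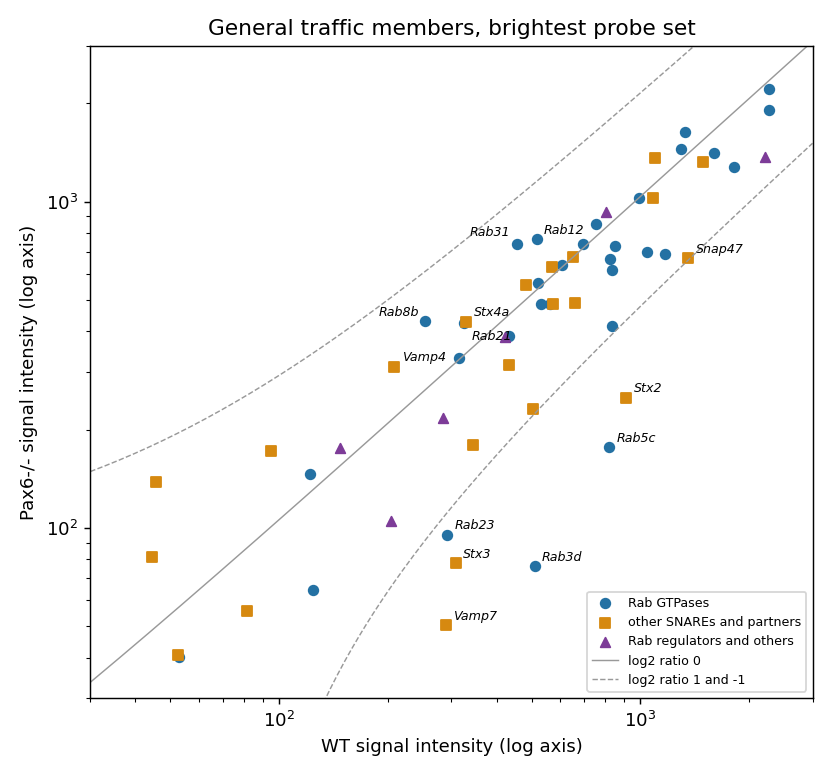
Signal intensity of the 59 general traffic genes in Pax6-/- (vertical, log axis) against WT (horizontal, log axis), 1 array each, brightest probe set. The solid line marks a log2 ratio of 0 and the dashed lines 2-fold after pseudocount and centring; Rab3d, Rab5c, Rab23, Stx2, Stx3 and Vamp7 lie beyond the lower dashed line and no gene beyond the upper.

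SNAREs outside the synaptic vesicle, with their partners, numbered 22, of which 13 were lower and 9 higher. Of the 22, 3 (13.6%) were past 2-fold lower and 0 higher, against 5.72% and 6.84% of all genes. Stx2, a plasma membrane syntaxin of non-neuronal secretion, had 250 in Pax6-/- and 916 in WT, 3.10-fold lower (log2 ratio −1.63) and past 2-fold in all alternatives that measured it. Stx3, a syntaxin of apical and ribbon-synapse membranes, had 77.9 in Pax6-/- and 309 in WT, 2.53-fold lower (log2 ratio −1.34, and −0.79 with the 50th-percentile pseudocount). Its other 2 probe sets, both dim, gave −0.22 and 0.08, so the Stx3 value rests on 1 probe set, and the mean of all 3 was −0.49. With Stx1a, 3 of the plasma membrane syntaxins were past 2-fold lower, whereas Stx4a, the broadly expressed one, had 428 in Pax6-/- and 330 in WT (log2 ratio 0.26).

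The vesicle SNAREs of general traffic were uneven, and both Vamp7 probe sets lay below the signal filter. Vamp7, of late endosomes and neurite outgrowth, had 50.3 in Pax6-/- and 290 in WT, 2.91-fold lower (log2 ratio −1.54, and −0.87 with the 50th-percentile pseudocount), but its other probe set gave 112 in Pax6-/- and 86.3 in WT (log2 ratio 0.16) and the mean of both was −0.69. Vamp3 (cellubrevin), of recycling endosomes, had 179 in Pax6-/- and 344 in WT (log2 ratio −0.75). Vamp4, of the trans-Golgi network, had 312 in Pax6-/- and 209 in WT (log2 ratio 0.39) at one probe set and 216 in Pax6-/- and 241 in WT (log2 ratio −0.16) at the other, and Vamp8 was level at 675 in Pax6-/- and 650 in WT (log2 ratio 0.00).

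Snap47 and Napa lay just short of 2-fold. Snap47, a widely expressed SNAP relative, had 669 in Pax6-/- and 1360 in WT (log2 ratio −0.99), beyond its technical spread of 0.44. Napa, the general adaptor of NSF, had 232 in Pax6-/- and 504 in WT (log2 ratio −0.95), while Nsf itself was at 556 in Pax6-/- and 482 in WT (log2 ratio 0.13), within the technical spread. Snap23, the non-neuronal counterpart of Snap25, was dim, at 138 in Pax6-/- and 45.7 in WT (log2 ratio 0.74). For Stxbp2, a Munc18 relative that binds syntaxins, the brighter probe set was level at 631 in Pax6-/- and 571 in WT (log2 ratio 0.08) and the other gave 127 in Pax6-/- and 334 in WT (log2 ratio −1.04). The SNAREs and partners described nowhere else, Stx5a, Stx6, Stx7, Stx8, Stx12, Stx18, Stxbp3, Syngr2, Syngr4 and Vamp5, lay between −0.42 (Stx18) and 0.48 (Syngr4).

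The 6 remaining symbols are no Rab GTPases. Rab3ip, a Rabin-type exchange factor, had log2 ratios of 0.15 and 0.42 at its 2 probe sets, and its relative Rab3il1 was at 0.13. Rab11fip5, a Rab11 effector, was at −0.34, and Rab5if, named for its link to Rab5, had 1373 in Pax6-/- and 2222 in WT (log2 ratio −0.71). Rab10os and Rab26os, annotated as long noncoding RNAs, were at −0.16 and −0.66. None was past 2-fold, and the general traffic median without Rab5if and both noncoding transcripts was −0.18.

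Agreement between probe sets of a gene limits these readings. Of the 84 genes, 21 had 2 or more probe sets, and in 15 of those the probe sets differed in sign. Of the 10 in which 2 probe sets passed the filter, those 2 shared a sign in only 2 genes, Rab31 and Rab3ip. In the presynaptic list Syt2, Syt3, Vamp1 and Vamp2 had the same sign at both probe sets, and Rab3a and Napb did not. Rab14, Rab10 and Rab7 were examples among probe sets above the filter: Rab14 had log2 ratios of −0.29 and 0.95, Rab10 −0.52 and 0.39, and Rab7 −0.44 and 0.35.

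**Figure D4:**
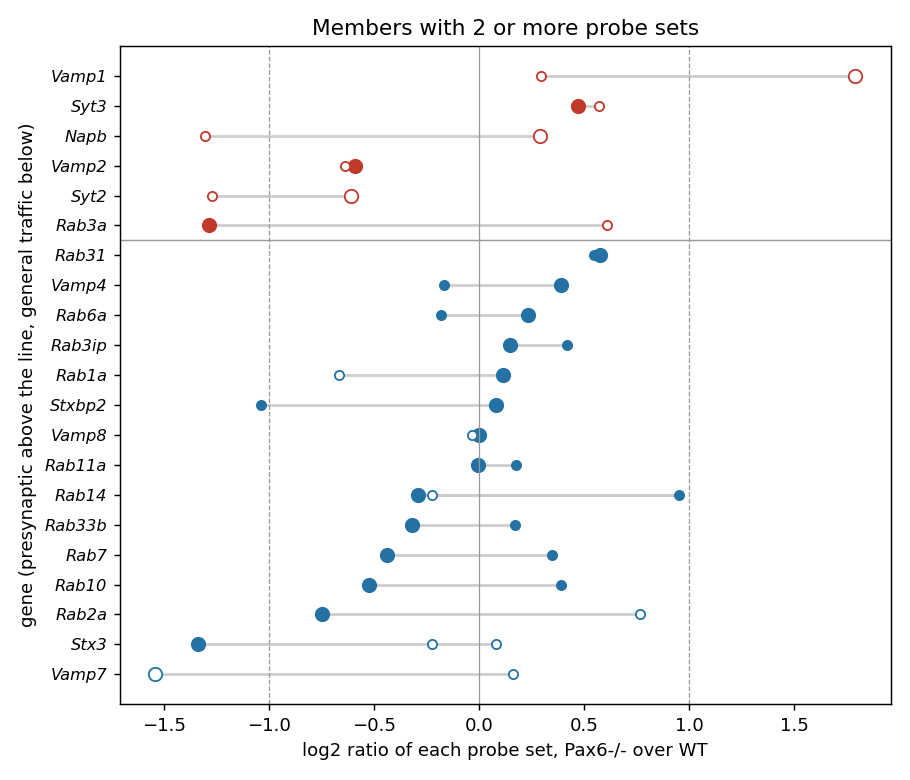
Log2 ratio, Pax6-/- over WT, of every probe set of the 21 genes with 2 or more, presynaptic genes in red and general traffic genes in blue, with the brightest probe set as the large point, filled above the signal filter and open below it. In 15 genes the points lie on both sides of 0, and dashed lines mark 2-fold.

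The other members with several probe sets gave small or opposed log2 ratios. Rab11a was at 0.00 and 0.17, Rab6a at 0.24 and −0.18, Rab33b at −0.32 and 0.17, and Vamp8 at 0.00 and −0.03. Rab1a, of the route from the endoplasmic reticulum to the Golgi, was at 0.12 and −0.66, and Rab2a, which acts on the same route, at −0.75 and 0.77. For these genes the arrays gave no settled direction.

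Genes of the same pathways outside the named families were read in the same way. Of 16 measured genes of the presynaptic terminal, 8 were higher and 8 lower, 2 past 2-fold in each direction, with a median log2 ratio of 0.01. That is 12.5% past 2-fold on each side, against 6.84% higher and 5.72% lower over all genes. Unc13b, a Munc13 priming factor, had 97.4 in Pax6-/- and 338 in WT (log2 ratio −1.28), while Bsn (bassoon), a scaffold of the active zone, had 293 in Pax6-/- and 90.1 in WT (log2 ratio 1.08). Pclo, a scaffold paired with bassoon, was on the other side at 47.5 in Pax6-/- and 303 in WT (log2 ratio −1.62), and the calcium channel gene Cacna1a at 236 in Pax6-/- and 46.0 in WT (log2 ratio 1.27), both below the filter.

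Of 51 measured membrane traffic genes outside the named families, 38 were lower and 13 higher, 4 past 2-fold lower and 1 past 2-fold higher, with a median of −0.16. That is 7.84% past 2-fold lower and 1.96% higher, against 5.72% and 6.84% over all genes. Rabac1, which binds prenylated Rabs, had 636 in Pax6-/- and 1576 in WT (log2 ratio −1.25), and Ap2a2, a subunit of the endocytic adaptor AP-2, had 968 in Pax6-/- and 2088 in WT (log2 ratio −1.09). The gene past 2-fold higher was Eea1, a Rab5 effector of early endosomes, at 413 in Pax6-/- and 140 in WT (log2 ratio 1.11). The SNAREs Bet1 and Vti1a, with log2 ratios of −1.57 and −1.04, were below the filter. The medians of the general traffic list and of this outside list, −0.18 and −0.16, lay side by side, and both came from the same 2 arrays. Of the 51 outside genes 46 lay above the signal filter, and the brightest tertile of all genes had a median of −0.12. Whether traffic genes differed from other genes of like signal was not tested.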

How the data were processed

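The authors' deposited values are signal intensities on a linear scale, 1 per probe set and array; MAS5 is named in the submitters' processing notes, while neither a version, a scaling target nor detection calls are stated there. The 2% trimmed mean was 500.2 on both arrays. GEO's platform annotation gave 1 symbol for 10855 probe sets; without control probe sets these formed 8251 genes, with the brightest probe set (mean of both arrays) standing for each gene. All 84 members matched the RefSeq gene table (GRCm38.p6) by gene ID.

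Before log2, 81.5 (the 25th percentile over both arrays) was added to each signal. The difference, Pax6-/- minus WT, was centred on its median over probe sets at or above the 40th percentile of mean log2 signal (the signal filter), a shift of 0.05. Counts and medians cover every measured member, because a filter on the mean admits genes through the array where they are high. Technical spread is the SD of the difference between the 2 brightest probe sets above the filter, over 894 genes, scaled to a single probe set by the square root of 2; it carries no variation between embryos. Precision is limited by the number of arrays, and no p-value was computed.

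Genes named are all presynaptic members, members past 2-fold, the 6 highest and 6 lowest general traffic genes above the filter, members with several probe sets, Pax6, and genes of the other lists past 2-fold above the filter. Rab4a, Rab4b, Rab5a, Rab5b, Rab11b, Vamp3, Napa, Nsf, Snap23, Tubb3, Dcx, Fabp7, Gad2, Lhx6, Lum, Pclo, Cacna1a, Bet1, Vti1a and the Rab regulators were named after their values were seen. Members and lists were chosen with earlier results of these data known. Alternatives were other scaling, pseudocounts, filters, probe set rules, thresholds and narrower lists, 1 of them (without Rab5if and the noncoding transcripts) added after seeing the data. The steps were tested on simulated data. Computations ran in Python 3.11.15 with statsmodels 0.14.6, scipy 1.17.1, pandas 2.3.3, numpy 2.4.6 and, for plots, matplotlib 3.10.9.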

Additional observations from a re-analysis of the deposited data

How the results depend on the processing

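The signs of both list medians held under each alternative that gave them. Without a pseudocount the presynaptic median was 0.46, 0.69 above the general traffic one. There 6 presynaptic genes were past 2-fold higher and 4 lower, and for general traffic 1 was higher and 10 lower. Of all genes, 15.6% were past 2-fold higher and 11.4% lower in that setting. A pseudocount at the 50th percentile gave a presynaptic median of 0.11, 0.23 above general traffic, and 1 presynaptic gene was past 2-fold higher (Vamp1), 1 lower (Rab3a) and 3 general traffic genes lower (Rab3d, Rab5c, Stx2), beside 1.22% of all genes higher and 1.56% lower. The 40th-percentile filter left 1 presynaptic gene past 2-fold higher and 2 lower, and 0 general traffic genes higher and 5 lower. Of all genes it kept, 5.17% passed 2-fold on the higher side and 5.62% on the other. Under the 60th-percentile filter the median was 0.077 and the difference 0.24, with 1 presynaptic gene higher, 1 lower and 2 general traffic genes lower. Among all genes kept there, 2.02% were past 2-fold higher and 3.41% lower. Counting every probe set gave 3 presynaptic entries higher and 5 lower, and 0 general traffic entries higher and 7 lower. Of all 10833 counted there, 7.01% were higher and 5.53% lower. At 1.5-fold, 5 presynaptic were higher and 5 lower, and 1 general traffic gene was higher and 13 lower, beside 16.2% of all genes higher and 15.4% lower; at 3-fold, 0 presynaptic and 3 general traffic genes were lower, beside 1.02% of all genes. Vamp7 turned to 0.16 when probe sets with a suffix for shared or relaxed-rule probes were dropped, which left its other probe set. Both Vamp1 probe sets carry such a suffix, so Vamp1 got no value there. The mean over probe sets moved Rab3a to −0.34 and Stx3 to −0.49. Dim signals limit the presynaptic list, of which 13 genes lay below the filter. No paired analysis was possible because each genotype has 1 array.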
